A study of Mus musculus with 6 samples.

Results

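The genes described here encode the signalling parts of the T cell receptor complex and the first proteins it acts through: Cd3d, Cd3e, Cd3g and Cd247 (the CD3 and zeta chains), Cd8a and Cd8b1 (the CD8 coreceptor), the kinases Lck and Zap70, and the adaptors Lat and Themis. They were chosen by name, with earlier results of these data known, as 10 of the 25654 genes with a value. All 10 had reads in all 6 libraries and were tested. The cells were CD8 T cells of wild-type female C57BL/6 mice, drawn from the spleen with a magnetic isolation kit. The groups were Aged (mice of about 65 weeks, 3 libraries) and Young (mice of 6 weeks, 3 libraries). Both groups had been stimulated for 2 days with plate-bound antibodies to TCR-β (3 µg/ml) and CD28 (1 µg/ml) in the presence of the growth factor IL-2 (10 ng/ml), and were then grown for 5 days with IL-2 alone, so every value describes activated, cultured cells after 7 days and not cells as they were in the animal. The labels call the libraries of a group biological replicates without saying whether each was a mouse of its own, so the p-values measure the spread between these libraries. Age and any difference in culture between the groups cannot be told apart.

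The T cell receptor recognises a peptide held by an MHC molecule, but its α and β chains have almost no cytoplasmic part and cannot signal by themselves. CD3 γ, δ, ε and the zeta chain carry the tyrosine motifs that the kinase LCK phosphorylates. LCK rides on the tail of CD8 α, and CD8 α pairs with CD8 β, the chain that makes the coreceptor efficient, to bind MHC class I. The kinase ZAP-70 then docks on the phosphorylated motifs and phosphorylates LAT, a membrane adaptor on which phospholipase C-γ1 and other effectors assemble. THEMIS is a T cell adaptor best known for its role in thymocyte selection, and it tunes early receptor signalling.

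Transcripts of all 3 CD3 genes, of Cd8b1 and of Themis were lower in aged cells, while Cd247, Lck, Zap70, Lat and Cd8a did not pass the test. Themis was 39.0% lower by group mean, the CD3 genes were 24.8% to 28.1% lower and Cd8b1 was 20.4% lower. Thus 5 of 10 genes were called lower and 0 higher, where 12.5% of the 10511 tested genes were called lower, 16.2% higher and 28.7% in either direction. These shares are not matched for level: even Zap70, the lowest of the 10 genes, stood in the top 20.4% of tested genes. The count of 0 higher was also 0 at an unadjusted p under 0.05. On recovered reads edgeR called 5 of the 10 lower and 0 higher (14.8% and 13.7% of all tested genes), and DESeq2 called 5 lower and 0 higher (9.68% and 9.06%). In 5 of 10 genes the groups did not overlap, beside 40.9% of all tested genes. The median log2 fold change was -0.25 over the 10 genes and 0.03 over all tested genes. All levels are CPM, reads scaled to the library's total, from 3′ end libraries, in which a transcript gives reads near its end alone and longer genes gain none for their length. A gene was called at a limma adjusted p under 0.05 (Benjamini-Hochberg over all tested genes), and each log2 fold change is aged minus young on log2(CPM + 1), with its SE. These are bulk libraries, in which fewer cells of a type and less RNA per cell cannot be told apart.

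**Figure D1:**
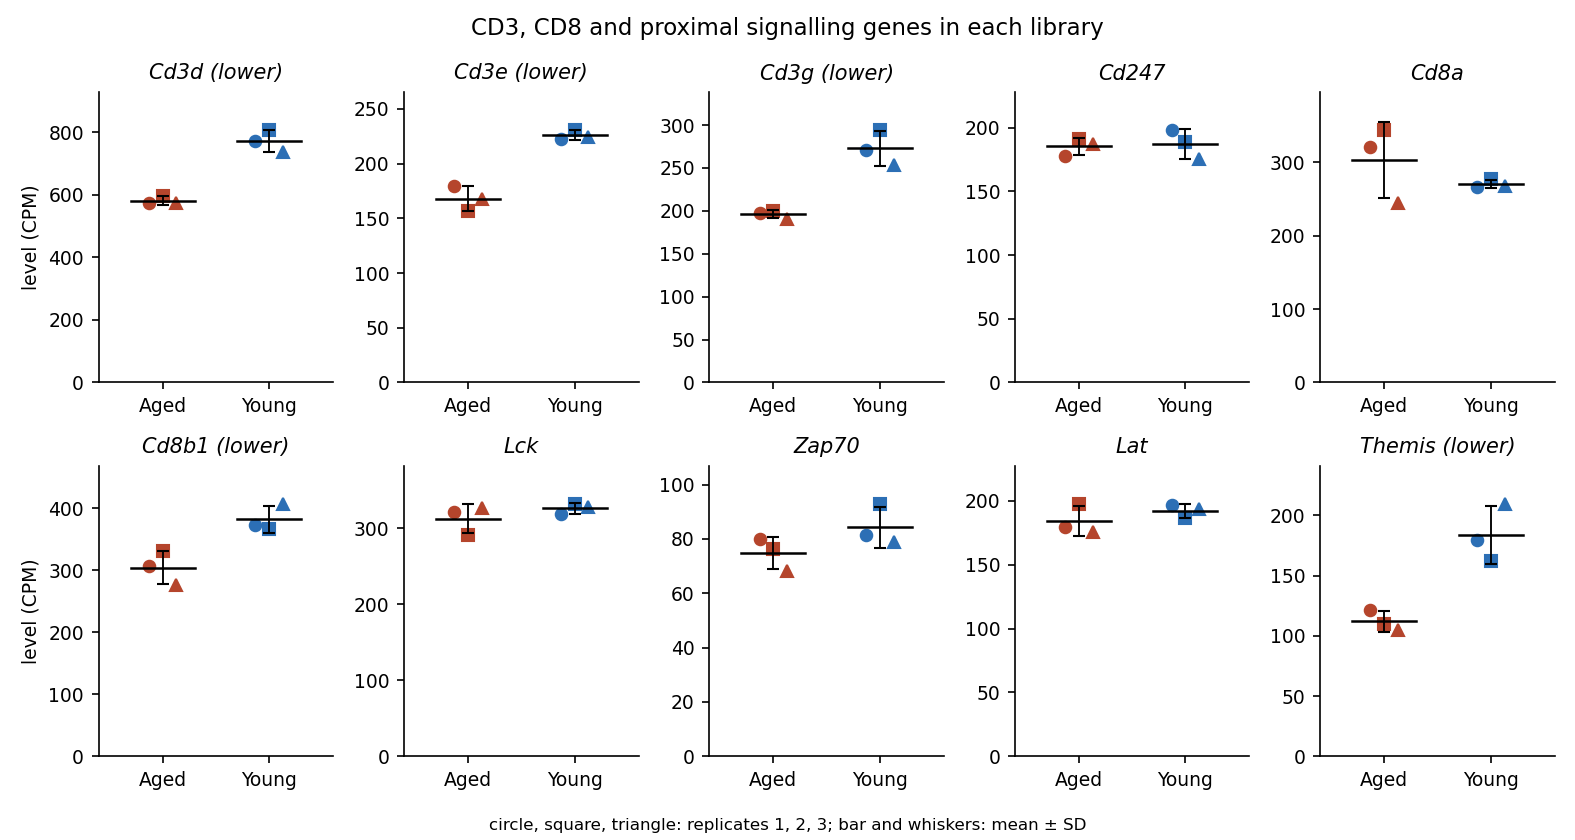
CPM of the 10 genes in each library, with Aged left of Young in every panel; points are single libraries and horizontal lines are group means with SD (n = 3 each). The aged and young points do not overlap for Cd3d, Cd3e, Cd3g, Cd8b1 and Themis, and overlap for the other 5 genes.

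The 3 CD3 genes lie side by side on chromosome 9 (GRCm38 coordinates, GENCODE annotation), within 40.056 kb. Cd3g (ENSMUSG00000002033, chr9:44969572-44980431, minus strand) and Cd3d (ENSMUSG00000032094, chr9:44981786-44987339, plus strand) start head to head with 1354 bases between them, and Cd3e (ENSMUSG00000032093, chr9:44998740-45009627, minus strand) follows 11400 bases beyond Cd3d. Cd247 (ENSMUSG00000005763, chr1:165788681-165877277, plus strand) stands apart on chromosome 1. The sequences upstream of the 4 starts are shown because the 3 neighbouring genes were all lower in aged cells and Cd247 was not called. Each line runs 5′ to 3′ on the gene's own strand over the 200 bases from 250 to 51 before the start (RefSeq, build GRCm38.p6), at chr9:44981536-44981735 for Cd3d, chr9:45009662-45009861 for Cd3e, chr9:44980482-44980681 for Cd3g and chr1:165788431-165788630 for Cd247. Capitals mark GGAAG or its reverse complement, a form of the core bound by ETS family factors. Other forms of that core are left unmarked.
Cd3d: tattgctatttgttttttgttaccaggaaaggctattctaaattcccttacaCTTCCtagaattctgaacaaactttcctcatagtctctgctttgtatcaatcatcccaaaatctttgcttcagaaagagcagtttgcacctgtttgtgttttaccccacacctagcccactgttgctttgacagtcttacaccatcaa
Cd3e: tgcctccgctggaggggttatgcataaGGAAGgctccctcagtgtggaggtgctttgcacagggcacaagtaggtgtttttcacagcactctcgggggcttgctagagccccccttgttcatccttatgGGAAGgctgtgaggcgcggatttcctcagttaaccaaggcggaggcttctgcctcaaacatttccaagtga
Cd3g: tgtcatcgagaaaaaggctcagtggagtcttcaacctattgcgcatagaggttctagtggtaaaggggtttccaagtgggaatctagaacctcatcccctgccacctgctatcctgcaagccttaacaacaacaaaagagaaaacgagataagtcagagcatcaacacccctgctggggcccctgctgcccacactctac
Cd247: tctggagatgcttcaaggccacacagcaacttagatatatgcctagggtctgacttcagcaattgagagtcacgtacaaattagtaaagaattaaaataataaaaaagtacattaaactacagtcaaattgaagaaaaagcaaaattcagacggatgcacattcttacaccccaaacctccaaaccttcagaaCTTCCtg

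GGAAG was found 1 time for Cd3d, 2 times for Cd3e, 0 times for Cd3g and 1 time for Cd247. Other forms of the ETS core were not counted, so the count for Cd3g does not mean that its window lacks them. It is a common word, present on either strand in 55.0% of 32841 promoter windows of the same length. The E-box CANNTG, which reads the same on both strands, was found 1 time for Cd3d, 1 time for Cd3e, 2 times for Cd3g and 1 time for Cd247, and in 59.1% of the windows. The search also covered a RUNX motif, TGTGGT, and a GATA motif, AGATAA, on either strand. TGTGGT was found 0 times for Cd3d, Cd3e, Cd3g and Cd247, and in 11.6% of the windows. AGATAA was found 1 time for Cd3g and 0 times for Cd3d, Cd3e and Cd247, and in 8.42% of the windows. GGAAG and CANNTG were picked with these sequences in view, and a match of any motif is not a measured binding site.

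Cd3d, which encodes CD3 δ, was the most abundant of the 10 genes and stood at place 226 of the 10511 tested genes by mean log2(CPM + 1). It had 573, 598 and 572 CPM in the aged libraries, against 773, 808 and 738 CPM in the young libraries. Every aged library lay below every young one, as did 18.3% of all tested genes. The means were 581 ± 14.4 CPM in aged and 773 ± 34.7 CPM in young cells (SD, n = 3 each), a log2 fold change of -0.41 ± 0.06 with a limma adjusted p of 2.27e-05.

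Cd3e encodes CD3 ε, the chain that pairs with both CD3 γ and CD3 δ. Its values were 179, 156 and 168 CPM in the aged libraries and 223, 231 and 224 CPM in the young libraries. The groups did not overlap, and the young libraries lay closer together than the aged ones. This was a log2 fold change of -0.43 ± 0.08 (limma adjusted p = 0.000276). Exons of Cd3e overlap Gm48719 on the other strand, and the counting's use of strand is not given in the sources used here.

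Cd3g encodes CD3 γ. It had 198, 199.7 and 191 CPM in the aged libraries, against 271, 294 and 254 CPM in the young libraries. The aged libraries were all below the lowest young one and closer together than the young ones. Its log2 fold change was -0.47 ± 0.07 (limma adjusted p = 8.35e-05), the lowest of the 4 chains, although the 95% intervals of the CD3 genes overlap: -0.53 to -0.29 for Cd3d, -0.59 to -0.27 for Cd3e and -0.63 to -0.32 for Cd3g.

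Cd247 encodes the zeta chain, which joins the complex as a dimer and carries the most tyrosine motifs of any of its chains. It had 178, 191 and 187 CPM in the aged libraries and 198, 188 and 175 CPM in the young libraries. The aged values lay within the range of the young ones. Its log2 fold change was -0.01 ± 0.08 (limma adjusted p = 0.921), with a 95% interval of -0.18 to 0.15, which corresponds to a change of -11.5% to 10.8%. Exons of Cd247 overlap Pou2f1 on the other strand. Pou2f1 averaged 49.6 ± 7.10 CPM in aged and 42.1 ± 5.08 CPM in young cells (SD, n = 3 each) and was not called (limma adjusted p = 0.237), and its part in the Cd247 value was not tested.

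Ratios between the CD3 genes overlapped between the groups. Cd3d stood at 3.47 ± 0.318 times Cd3e in aged and 3.42 ± 0.114 times in young libraries, and Cd3g at 1.17 ± 0.0922 times Cd3e in aged and 1.21 ± 0.073 times in young libraries (SD, n = 3 each). For Cd247 they did not overlap. The ratio of Cd247 to Cd3e was 0.991, 1.22 and 1.11 in the aged libraries, against 0.891, 0.816 and 0.781 in the young libraries. All aged ratios were above all young ones, by 0.42 on the log2 scale. The two-sided exact permutation p was 0.1, the smallest that 3 libraries against 3 allow, and 0.15 after Benjamini-Hochberg adjustment over the 3 ratios tested, so it does not pass 0.05. Zeta made up 16.4% of the summed CD3 and zeta reads in aged libraries (15.8% to 16.7%) and 12.8% in young libraries (12.4% to 13.5%).

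Summed over the 4 chains, CD3 and zeta transcripts came to 1128, 1145 and 1118 CPM in the aged libraries, against 1465, 1521 and 1391 CPM in the young libraries. The aged mean was 22.5% lower and the groups did not overlap (two-sided exact permutation p = 0.1, adjusted p = 0.133 over 4 sums). The α, β, γ and δ receptor chains themselves cannot be set beside these values, since the 7 receptor constant region genes in the files are all listed at 0.

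**Figure D2:**
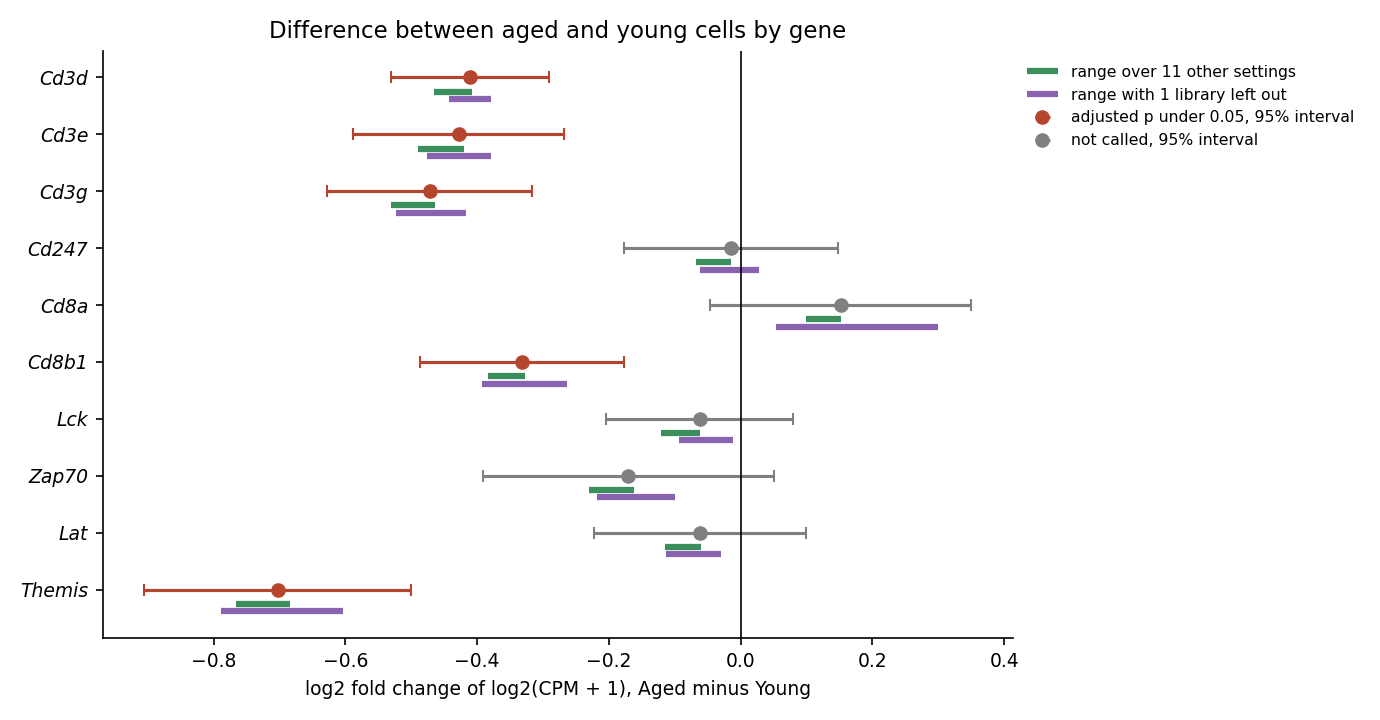
Log2 fold change of each gene, aged minus young on log2(CPM + 1), with its 95% interval from limma; the coloured bars below each interval give the range over 11 other settings and the range with 1 library left out. The intervals of Cd3d, Cd3e, Cd3g, Cd8b1 and Themis lie below 0, and those of the other 5 genes include 0.

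The genes of the CD8 coreceptor lie on chromosome 6, Cd8b1 (ENSMUSG00000053044, chr6:71322788-71337494, plus strand) 35932 bases before Cd8a (ENSMUSG00000053977, chr6:71373427-71379173, plus strand). Cd8b1 was lower in aged cells and Cd8a was not called. Cd8b1 had 306, 330.5 and 276 CPM in the aged libraries, against 373, 367 and 407 CPM in the young libraries. No aged library reached the lowest young one. The means were 304 ± 27.2 CPM in aged and 383 ± 21.7 CPM in young cells (SD, n = 3 each), with a log2 fold change of -0.33 ± 0.07 and a limma adjusted p of 0.00209. In the last 300 bases of its transcript Cd8b1-201, 86 of 251 windows of 50 bases also occur in transcripts of other genes (24 genes), so part of its reads may be placed with less certainty.

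Cd8a had 321, 344 and 244 CPM in the aged libraries and 266, 276 and 268 CPM in the young libraries. Aged replicates 1 and 2 were above every young library, and Aged replicate 3 was below every young library. The coefficient of variation was 17.2% among aged and 2.11% among young libraries. Against the spread that read counting alone gives, the chi-square per degree of freedom was 20.1 among aged and 0.314 among young libraries, and the aged value was the highest of any of the 10 genes in either group. Cd8a had a log2 fold change of 0.15 ± 0.09 with a limma adjusted p of 0.259. Without Aged replicate 3 it was 0.30 with an adjusted p of 0.00578, which would count as a call of higher. Without Aged replicate 2 it was 0.053 (adjusted p = 0.740) and without Aged replicate 1 it was 0.10 (adjusted p = 0.546), so the size of the Cd8a difference depends on which aged library is left out. On the second principal component of all tested genes, which held 14.2% of the variance, the aged replicates stood at 24.8, 2.90 and -25.8, with replicate 3 at the low end.

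Set against each other within a library, the 2 chains gave groups that did not overlap. The ratio of Cd8b1 to Cd8a was 0.954, 0.961 and 1.13 in the aged libraries, against 1.40, 1.33 and 1.52 in the young libraries. Aged replicate 3, with its low Cd8a, had the highest aged ratio and was still below all young ratios. The mean log2 ratio was 0.48 lower in aged libraries, -0.48 as aged minus young (two-sided exact permutation p = 0.1, adjusted p = 0.15 over 3 ratios, with 0.1 the smallest p possible). The sum of both chains was 627, 674 and 521 CPM in the aged libraries and 639, 644 and 675 CPM in the young libraries, and these groups overlapped (exact permutation p = 0.4).

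**Figure D3:**
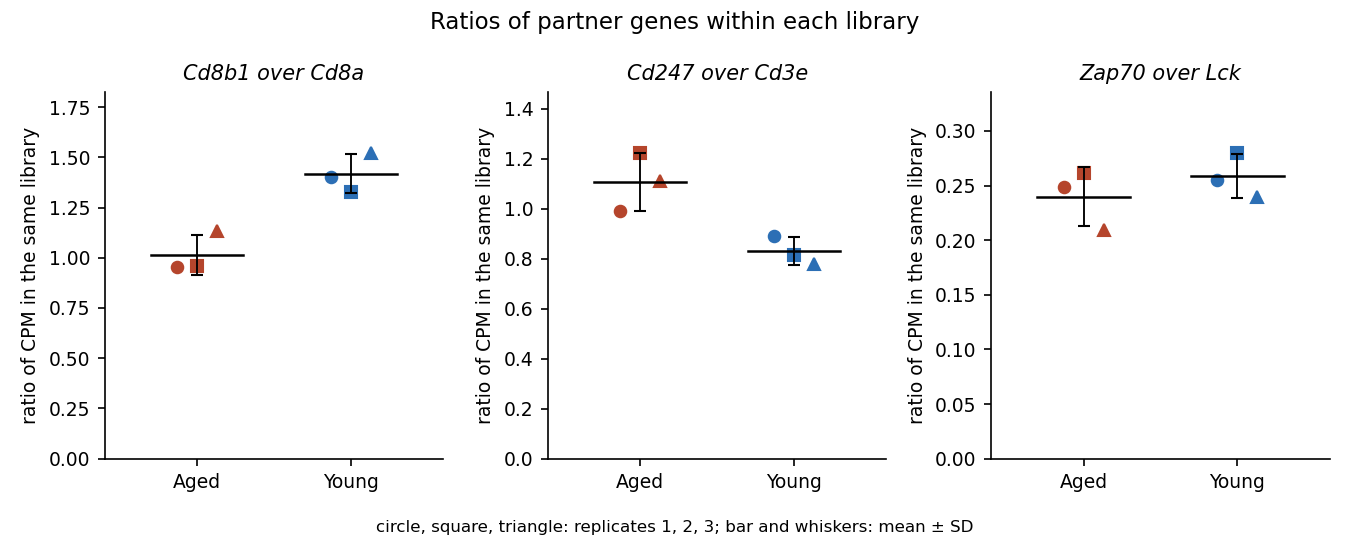
Ratios of CPM within each library, with Aged left of Young; points are libraries and lines are means with SD (n = 3 each). Cd8b1 to Cd8a was lower and Cd247 to Cd3e higher in every aged library than in any young one, and Zap70 to Lck overlapped.

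Neither proximal kinase was called. Lck (ENSMUSG00000000409, chr4:129548344-129573641, minus strand) had 321, 291 and 326 CPM in the aged libraries and 318, 332 and 329 CPM in the young libraries. The groups overlapped, and Aged replicate 2 was the lowest library. Lck had a log2 fold change of -0.06 ± 0.07 (limma adjusted p = 0.541) with a 95% interval of -0.20 to 0.08, or -13.2% to 5.65%. That interval does not overlap those of Cd3d, Cd3e and Cd3g; the difference between Lck and these genes was not tested.

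Zap70 (ENSMUSG00000026117, chr1:36761798-36782818, plus strand) was the least abundant of the 10 genes, with 79.9, 76.3 and 68.2 CPM in the aged libraries and 81.3, 93.0 and 78.8 CPM in the young libraries. Aged replicates 2 and 3 were below all young libraries and Aged replicate 1 was not. The log2 fold change was -0.17 ± 0.11 (limma adjusted p = 0.254), and its 95% interval of -0.39 to 0.05 holds both 0 and the fold change of Cd8b1. The ratio of Zap70 to Lck was 0.249, 0.262 and 0.209 in the aged libraries and 0.255, 0.280 and 0.240 in the young libraries, with overlapping groups (exact permutation p = 0.5).

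Of the adaptors, Themis was lower in aged cells and Lat was not called. Themis (ENSMUSG00000049109, chr10:28668360-28883818, plus strand) had 122, 110.0 and 105 CPM in the aged libraries, against 180.0, 162 and 209.8 CPM in the young libraries. The groups did not overlap, and the coefficient of variation was 7.74% among aged and 13.1% among young libraries. The means were 112 ± 8.70 CPM in aged and 184 ± 24.0 CPM in young cells (SD, n = 3 each). The log2 fold change of -0.70 ± 0.10 (limma adjusted p = 1.99e-05) was the lowest of the 10 genes. Exons of Themis overlap 4930519F09Rik on the other strand, and in the last 300 bases of 1 of its transcripts, Themis-206, 8 of 251 windows of 50 bases also occur in other genes' transcripts.

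Lat (ENSMUSG00000030742, chr7:126363824-126369570, minus strand) had 179, 198 and 176 CPM in the aged libraries and 197, 186 and 194 CPM in the young libraries. Aged replicate 2 was above every young library and the other 2 aged libraries were below them. The log2 fold change was -0.06 ± 0.08 (limma adjusted p = 0.601, 95% interval -0.22 to 0.10). Themis stood at 0.611 ± 0.0632 times Lat in aged and 0.956 ± 0.112 times in young libraries (SD, n = 3 each), without overlap, whereas Lat stood at 0.592 ± 0.0756 times Lck in aged and 0.590 ± 0.0292 times in young libraries.

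By mean level in CPM, the order in aged cells was Cd3d, Lck, Cd8b1, Cd8a, Cd3g, Cd247, Lat, Cd3e, Themis and Zap70. Neighbours overlapped in their library ranges from Lck to Cd8a and from Cd3g to Cd3e, so those orders are not separated by the spread. In young cells the order was Cd3d, Cd8b1, Lck, Cd3g, Cd8a, Cd3e, Lat, Cd247, Themis and Zap70, with overlap between Cd3g and Cd8a and from Lat to Themis. Cd3e stood above the ranges of Lat and Cd247 in young cells, and its range overlapped that of Lat in aged cells.

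The genes most like a given member were taken as those with the smallest root mean square difference of centred log2(CPM + 1) over the 6 libraries, among 5549 other genes that averaged 20 CPM or more. For Cd3e they were Cast at 0.0347, AI413582 at 0.0354 and Gtf2i at 0.0380. For Cd8a they were Cstf3 at 0.0438, Asb2 at 0.0460 and Ly6a at 0.0504. Ly6a, which encodes the surface protein Sca-1, had 988, 1139 and 815 CPM in the aged libraries and 819.9, 890.2 and 896 CPM in the young libraries, with Aged replicate 3 the lowest of the 6 as for Cd8a. For Cd247 they were Zkscan1 at 0.0232, Impad1 at 0.0379 and Vps53 at 0.0383, and for Lck they were Ftl1 at 0.0187, Rtn3 at 0.0212 and Mta3 at 0.0259. These are likenesses over 6 libraries that share an age split, and nothing follows from them about function.

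Beyond the 10 genes, a list of 69 other genes of the receptor pathway held 66 that were tested. That list, too, was chosen with earlier results of these data known. Of these, 23 were lower in aged cells, 5 were higher and 38 were not called, beside 12.5% of all tested genes called lower and 16.2% higher. Their median log2 fold change was -0.20. The lower genes came from each of the 6 roles: 1 of 4 other kinases, 4 of 14 other adaptors, 9 of 20 effectors downstream of LAT, 5 of 9 regulators of LCK and ZAP-70, 1 of 10 dampening adaptors and ubiquitin ligases, and 3 of 9 surface partners. The group downstream of LAT also held Rhoh, which helps bring ZAP-70 to the receptor, and Dgka, which restrains receptor signalling. Among all 66 tested genes, the number called higher depended on the scaling: it was 2 with TMM, RLE or upper-quartile scaling.

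**Figure D4:**
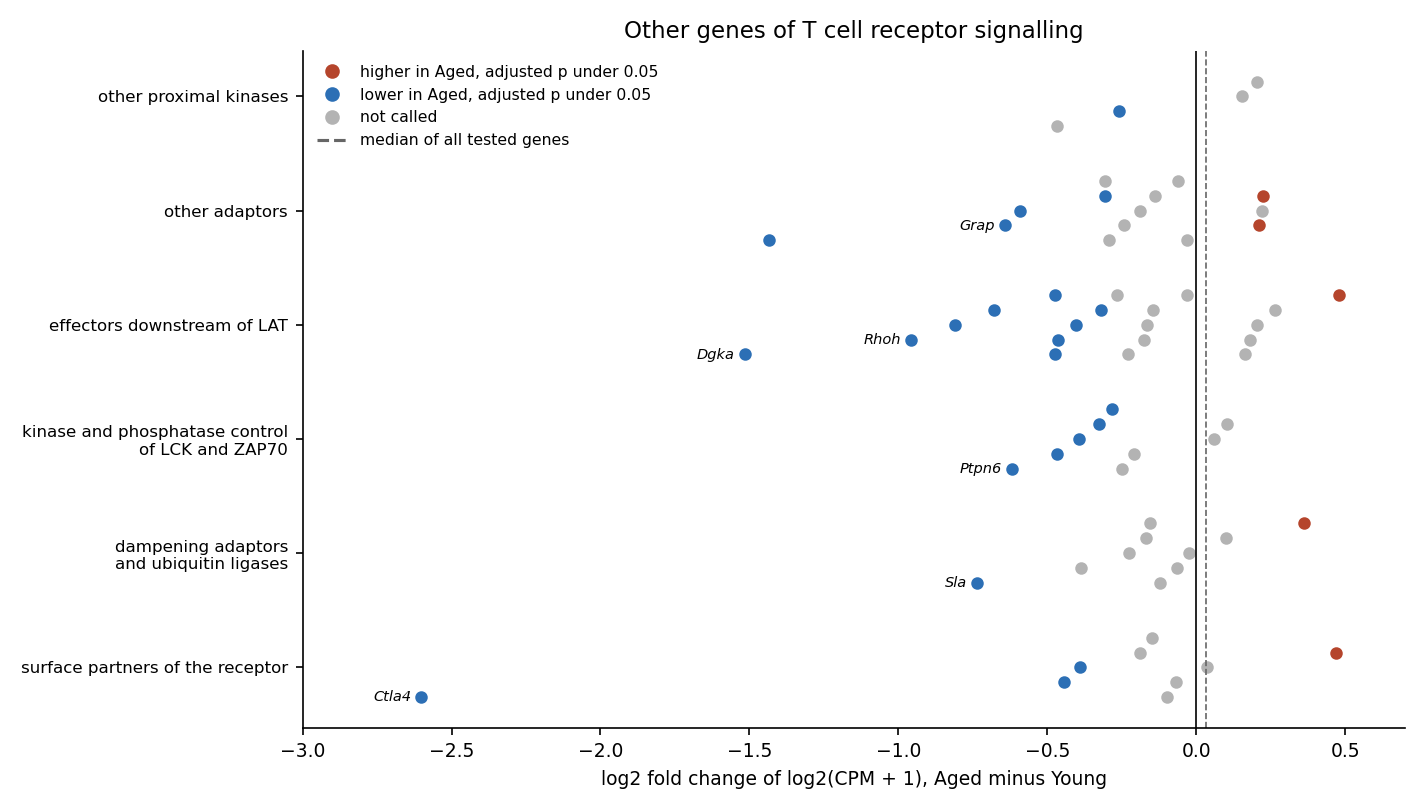
Log2 fold change, aged minus young on log2(CPM + 1), of the 66 tested pathway genes by role, with genes called lower, called higher and not called in separate colours and the median of all tested genes (0.03) as a dashed line. Ctla4 and Dgka lie farthest to the left, at -2.60 and -1.52, and no gene lies above 0.48.

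Ctla4, the inhibitory receptor that competes with CD28 for its ligands, had the lowest value on the list. It had 12.3, 11.5 and 17.4 CPM in the aged libraries, against 82.6, 106 and 75.7 CPM in the young libraries. Every aged library was far below every young one, and the log2 fold change was -2.60 ± 0.17 (limma adjusted p = 4.52e-09). Dgka encodes diacylglycerol kinase α, which removes the diacylglycerol made after LAT assembly. It had 69.1, 65.2 and 68.2 CPM in the aged libraries, against 205, 215 and 168 CPM in the young libraries, a log2 fold change of -1.52 ± 0.10 (limma adjusted p = 4.52e-09). Dgka overlaps Pmel on the other strand, which was also lower at 6.94 ± 3.49 CPM in aged and 18.2 ± 5.43 CPM in young cells (SD, n = 3 each). Both Ctla4 and Dgka restrain receptor signalling.

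Fyn, the Src family kinase that partly shares the work of LCK, was lower, at 198, 188 and 206 CPM in the aged libraries and 233, 251 and 224 CPM in the young libraries (log2 fold change -0.26 ± 0.08, limma adjusted p = 0.0136). Its call was lost in 2 of 17 alternatives, without Aged replicate 2 and without Young replicate 2, where the adjusted p was 0.0564 and 0.0690. Ptprc, which encodes CD45, the phosphatase that keeps LCK ready for activation, had 1144, 1076 and 1230 CPM in the aged libraries and 1449, 1409 and 1331 CPM in the young libraries (-0.28 ± 0.06, adjusted p = 0.000939). Ptpn6, which encodes the phosphatase SHP-1, had 45.6, 33.0 and 53.2 CPM in the aged libraries and 63.04, 64.6 and 72.6 CPM in the young libraries (-0.62 ± 0.15, adjusted p = 0.00335). All 3 had groups without overlap.

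Cd2, an adhesion receptor that lowers the threshold for activation, was lower, at 302, 271 and 262 CPM in the aged libraries and 356, 389 and 389 CPM in the young libraries (log2 fold change -0.44 ± 0.07, limma adjusted p = 0.000107). Among the adaptors, Fyb, which links the receptor to integrins, was lower by -0.31 ± 0.07 (adjusted p = 0.00218) and Grap, a relative of GRB2, by -0.64 ± 0.14 (adjusted p = 0.00142). Rhoh, a small GTPase that helps bring ZAP-70 to the receptor, had 25.6, 27.6 and 24.5 CPM in the aged libraries and 48.3, 53.8 and 51.5 CPM in the young libraries (-0.96 ± 0.13, limma adjusted p = 2.33e-05). Nfatc3, a calcium-regulated transcription factor, was lower by -0.32 ± 0.06 (adjusted p = 0.000605), and Sla, the adaptor SLAP that promotes loss of zeta protein, by -0.73 ± 0.16 (adjusted p = 0.00166). Cbl, a ubiquitin ligase and the most abundant gene of its role, was not called (-0.07 ± 0.07, adjusted p = 0.545).

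The 5 genes called higher had log2 fold changes of 0.21 to 0.48. Sos1, a Ras exchange factor brought to LAT by GRB2, had 65.0, 61.0 and 56.9 CPM in the aged libraries and 38.7, 46.3 and 45.7 CPM in the young libraries (log2 fold change 0.48 ± 0.12, limma adjusted p = 0.0055), a call lost with DESeq2 (adjusted p = 0.0702). Dok2, an adaptor that dampens Ras signalling, had 153, 177 and 183 CPM in the aged libraries and 139, 126 and 132 CPM in the young libraries (0.36 ± 0.09, adjusted p = 0.00393), and its call was kept in all 17 alternatives. Grb2 (0.23 ± 0.07, adjusted p = 0.0148) lost its call in 7 alternatives, which included all 3 scalings, and Sh2d2a, which encodes the LCK-binding adaptor TSAd (0.21 ± 0.08, adjusted p = 0.0464), lost it in 13. Fcer1g, which encodes a signalling chain related to zeta that NK cells and some activated CD8 T cells use, had 78.4, 48.3 and 88.9 CPM in the aged libraries and 47.4, 51.3 and 51.5 CPM in the young libraries (0.47 ± 0.16, adjusted p = 0.0367). Aged replicate 2 was within the young range for Fcer1g, and the call was lost in 10 alternatives.

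The labelled cell type was checked by markers. The 7 CD8 T cell markers, of which 5 are among the 10 genes, were all detected, led by Thy1 with a mean of 1059 CPM. Their sum ran from 2802 to 3133 CPM in aged and 3229 to 3343 CPM in young libraries. Thy1 had 1127, 1233 and 1089 CPM in the aged libraries and 976, 977 and 949 CPM in the young libraries. Every aged library was thus above every young one for Thy1. For Cd8b1, Cd3d, Cd3e, Cd3g and Cd2 the reverse held, and Cd8a overlapped. Cd4 was at or below 0.384 CPM, or 1 read, in every library. Of the markers of other cells, Cd79a, Ms4a1, Lyz2, Adgre1, S100a8 and Hbb-bs were at 0 in all 6 libraries. Summed B cell markers ran from 1.53 to 2.82 CPM in aged and 6.46 to 12.7 CPM in young libraries, with 5 of 8 at 0 throughout and Cd79b highest. Myeloid markers ran from 10.7 to 23.5 CPM in aged and 21.9 to 27.4 CPM in young libraries (5 of 10 at 0, Cd68 highest), and γδ and innate-like T cell markers from 7.53 to 13.8 CPM in aged and 27.3 to 33.5 CPM in young libraries (1 of 5 at 0, Tmem176b highest). CD4 and regulatory T cell markers ran from 33.7 to 47.6 CPM in aged and 49.2 to 58.0 CPM in young libraries (0 of 5 at 0, Ikzf2 highest), and NK markers from 75.5 to 131 CPM in aged and 97.8 to 105 CPM in young libraries (0 of 6 at 0, Fcer1g highest). Neutrophil markers ran from 55.1 to 129 CPM in aged and 82.6 to 102 CPM in young libraries (3 of 6 at 0, Ly6g highest), and red cell and platelet markers from 0.767 to 2.56 CPM in aged and 7.83 to 15.8 CPM in young libraries (3 of 7 at 0, Hbb-bt highest). Of the neutrophil markers 5 of 6, and of the γδ and innate-like markers 4 of 5, averaged below 1 CPM. The neutrophil sum was almost wholly Ly6g, and the γδ and innate-like sum almost wholly Tmem176b. The part of these marker levels in the results above was not tested. Total reads were 1952552 to 2608553 in aged and 2300219 to 2785915 in young libraries, and 145 to 2250 reads stood behind each value of the 10 genes.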

How the data were processed

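QuantSeq 3′ mRNA libraries were made from 500 ng of RNA, per the labels' protocols. The build was GRCm38 (mm10), per the submitters' processing notes. For the aligner, the read counter, how it handled strand and multiply matching reads, and the gene models, the sources used here give no name. Values were deposited by the authors as CPM for 25655 identifiers per library, of which 1 with a blank value was left out. Whole reads were recovered from the CPM steps (100% of values whole within 0.001 reads). A single read was worth 0.359 to 0.512 CPM, and a count of 0 allows up to 3 reads, 1.08 to 1.54 CPM; such floors cover counting error only. The header of the Aged replicate 2 file names replicate 3. The deposit's record assigns it to replicate 2, which was followed, and it is no copy of Aged replicate 3.

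The main test was limma 3.58.1 (R 4.3.3) with a mean-variance trend on log2(CPM + 1), two-sided, on the 10511 genes averaging 1 CPM or more, with Benjamini-Hochberg adjustment and a threshold of 0.05. Log2 fold changes understate changes of genes at low CPM. Ratios and sums were tested by exact permutation (SciPy 1.17.1). The 17 alternatives were TMM, RLE and upper-quartile scaling, no filter, a filter at a mean of 5 CPM, pseudocounts of 0.1 and 5, edgeR 4.0.16, DESeq2 1.42.0 and limma-voom fitted to recovered reads, a block for replicate number, and leaving out each library. The limma fit was tested on simulated reads with known changes and the same fixed dispersion for all genes. That checks how the fit works and does not test the calls in these libraries.

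The members and lists were chosen with earlier results of these data known. Named genes are the 10 members, up to 2 called genes per direction in each role with the smallest p, the most abundant gene of each role, the 3 genes most like each of Cd3e, Cd8a, Cd247 and Lck, and the most abundant marker of each other cell type. Pou2f1, Pmel, the overlapping gene models, Cd4, Thy1, the markers at 0 and the genes under the other observations were named outside this rule.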

Additional observations from a re-analysis of the deposited data

How the results depend on the processing

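The calls of Cd3d, Cd3e, Cd3g, Cd8b1 and Themis were kept in all 17 alternatives. The number of these 10 genes called higher ran from 0 to 1 when 1 library was left out, the 1 being Cd8a without Aged replicate 3. Cd247, which was never called, ran from -0.061 to 0.027 on the log2 scale when 1 library was left out, and was above 0 without Aged replicate 1 (0.015) and without Young replicate 1 (0.027). Of the 69 listed pathway genes, 5 were called higher in the main test, against 2 with TMM, 2 with RLE and 2 with upper-quartile scaling, 2 with limma-voom, 3 with edgeR and 1 with DESeq2, and 3 to 5 when 1 library was left out. Leaving out any single library except Aged replicate 2 gave 3. Over all tested genes DESeq2 called 952 higher and 1017 lower, against 1701 higher and 1313 lower in the main test, and edgeR called 1443 higher and 1555 lower. The scalings moved the median log2 fold change by -0.05 (TMM), -0.04 (RLE) and -0.04 (upper-quartile).

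Replicate numbers are shared by the groups. The correlations of same-numbered deviations were 0.0209, 0.00025 and 0.0028, and not every library correlated best with its own number. These correlations gave no sign of pairing, but 3 libraries a group cannot exclude it. With the replicate block, 1725 genes were called higher and 1336 lower, 5 of the 10 genes were lower and 0 higher, and 4 pathway genes were higher and 23 lower. Among named genes the block changed the call of Sh2d2a (adjusted p = 0.0544). With 3 libraries a group, exact permutation cannot go below 0.1. Zap70, with the fewest reads, has the widest interval of the 10 genes.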

Other observations

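Several further genes of the receptor pathway were lower in aged cells; they were picked after their values were seen. On the calcium branch, Plcg1, the phospholipase that LAT recruits, had 55.8, 52.5 and 61.7 CPM in the aged libraries, against 73.9, 76.8 and 84.9 CPM in the young libraries (log2 fold change -0.46 ± 0.11, limma adjusted p = 0.00323). Stim1, the calcium sensor of the endoplasmic reticulum, averaged 66.2 ± 5.56 CPM in aged and 92.2 ± 6.66 CPM in young cells (SD, n = 3 each; -0.47 ± 0.10, adjusted p = 0.00187 by limma). Ppp3ca, a catalytic chain of calcineurin, averaged 200.4 ± 12.9 CPM in aged and 265 ± 8.96 CPM in young cells (SD, n = 3 each; -0.40 ± 0.07, adjusted p = 0.000354 by limma). Ppp3cb, which encodes an alternative catalytic chain, was not called (0.26 ± 0.12, limma adjusted p = 0.0986), nor was Orai1, the calcium channel that STIM1 opens (0.18 ± 0.14, limma adjusted p = 0.39).

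On the branch to NF-κB, Prkcq, which encodes protein kinase C-θ, was lower (log2 fold change -0.47 ± 0.11, limma adjusted p = 0.00246). Trat1, the adaptor TRIM, which associates with the receptor complex, had 17.9, 8.82 and 3.76 CPM in the aged libraries and 19.998, 21.2 and 36.5 CPM in the young libraries (-1.43 ± 0.35, limma adjusted p = 0.00415). Cd28, the receptor engaged by the second antibody in the culture, had 126, 111 and 103 CPM in the aged libraries and 138, 151 and 156 CPM in the young libraries (-0.39 ± 0.09, limma adjusted p = 0.00348). Lcp2, which encodes SLP-76, the adaptor that works beside LAT, averaged 184 ± 6.03 CPM in aged and 188 ± 1.90 CPM in young cells (SD, n = 3 each) and was not called (limma adjusted p = 0.803).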
